A study of Mus musculus with 9 samples.

Results

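The 46 genes described here act in mitosis, from the cyclin-dependent kinase that opens it to the proteins that part the daughter cells. They were taken from the deposited table by gene symbol with no minimum value, and all 46 were found among its 13539 genes. The study sequenced heart RNA of OMA1 knockout mice given isoproterenol, of wild-type mice given isoproterenol and of untreated OMA1 knockout mice, with 3 libraries in each group. OMA1 is a protease of the inner mitochondrial membrane that is activated by stress, and the knockout was carried by the untreated group as well as by one of the treated groups. Isoproterenol, an agonist of β-adrenergic receptors, was given for 7 days at 10 mg/kg per day through implanted minipumps. All mice were males, 12 weeks old, on the C57BL/6JOlaHsd background. The untreated knockout mice are labelled as non-treated, so drug and pump cannot be told apart. Wild-type hearts without treatment were not analysed here, and whether the genotype changes the response to the drug was therefore not tested.

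A dividing cell condenses its chromosomes, attaches them through kinetochores to the microtubules of the spindle, and holds back their separation until every kinetochore is attached. The anaphase-promoting complex then marks securin and cyclin B for destruction, the sister chromatids part, and a ring of actin and myosin closes between them. Most genes of this machinery are transcribed in G2 and mitosis under the MuvB complex with B-MYB and FOXM1, and are kept silent in resting cells by the DREAM complex. Adult heart muscle cells rarely divide, whereas endothelial cells, fibroblasts and immune cells of the heart can. These are bulk samples, in which more dividing cells and more RNA per dividing cell cannot be told apart.

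Values are the deposited normalized counts, which are scaled to library size. A value after ± is the SD of 3 libraries for a level and the standard error for a log2 difference. Depth was 6.93e+06 to 8.15e+06 reads per library in untreated and 8.62e+06 to 1.22e+07 in treated hearts. Every untreated library was thus shallower than every treated one, and read totals given below are not scaled for this. Oma1 itself, the label check, had 5.73 to 6.74 normalized counts in treated knockout hearts, 17.7 to 22.01 in hearts of treated wild-type mice and 6.52 to 9.10 in those of untreated knockout mice. Heart muscle transcripts were abundant in all 9 libraries, as the tissue label says. Markers of atrial muscle differed between the treated and the untreated hearts. Myl7, the atrial myosin light chain, stood at 0.243 ± 0.217 in treated knockout hearts, 0.233 ± 0.0415 in treated wild-type hearts and 200 ± 74.7 in untreated knockout hearts. The 6 atrial markers summed to 106 to 137 in treated knockout, 69.0 to 874 in treated wild-type and 1154 to 2587 in untreated knockout hearts. The labels do not say which chambers were dissected, and the part of this difference in the results below was not tested. Of the treated libraries 2 stood apart. Wild-type replicate 3 had the highest sums of its group for the atrial markers (874, against 69.0 and 102), the fibroblast markers (4987, against 2730 and 2909) and the macrophage markers (495, against 340 and 371). Its higher atrial sum did not come from Myl7, which was low in all treated wild-type libraries (0.233 ± 0.0415). Knockout replicate 2 had the highest share of mitochondrially encoded transcripts (42.5%, against 38.2% and 39.6% in its group) and the highest sum of 6 red-cell and erythroid precursor markers (3650, against 843 and 1118).

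Summed over the 46 genes, the level was 413, 623 and 489 normalized counts in treated knockout hearts, 412, 494 and 515 in treated wild-type hearts and 139, 143 and 137 in untreated knockout hearts. The treated libraries of both genotypes thus lay above all 3 untreated libraries and overlapped each other. Between treated and untreated knockout hearts, all 46 genes rose and 0 fell by limma on log2(value + 1), with Benjamini-Hochberg adjustment over 13539 genes and a threshold of 0.05. Of all genes tested, 21.0% were called higher and 20.3% lower in this comparison. The median log2 difference of the 46 genes was 1.84, and that of all genes 0.01. Over all genes 2849 were called higher and 2746 lower, and 3870 and 1984 when values were rescaled to the total without mitochondrially encoded transcripts, which shifted the median of all genes by 0.095. The 46 calls held under that scaling too.

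The log2 difference ran from 0.41 for Cenpa to 2.99 for Mki67, and the ratio of mean levels from 1.35 to 15.0 with a median of 7.18. On that log2 scale 43 of the 46 were at least 2-fold higher, as were 2.83% of all genes. In all 46 every treated knockout library lay above every untreated one, which was so for 27.8% of all genes. The pseudocount of 1 understates the change of genes with few reads, and most of these genes had few in untreated hearts. Over 3 libraries a member had 77 to 1802 reads in treated knockout hearts, 75 to 1779 in treated wild-type and 4 to 624 in untreated knockout hearts, with medians of 244, 189.5 and 27. Each of the 46 had at least 1 read in each of the 9 libraries. edgeR's quasi-likelihood test on the recovered reads called all 46 higher, as it did 19.9% of all genes, with log2 differences of 0.42 to 3.87 and a median of 2.81.

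**Figure D1:**
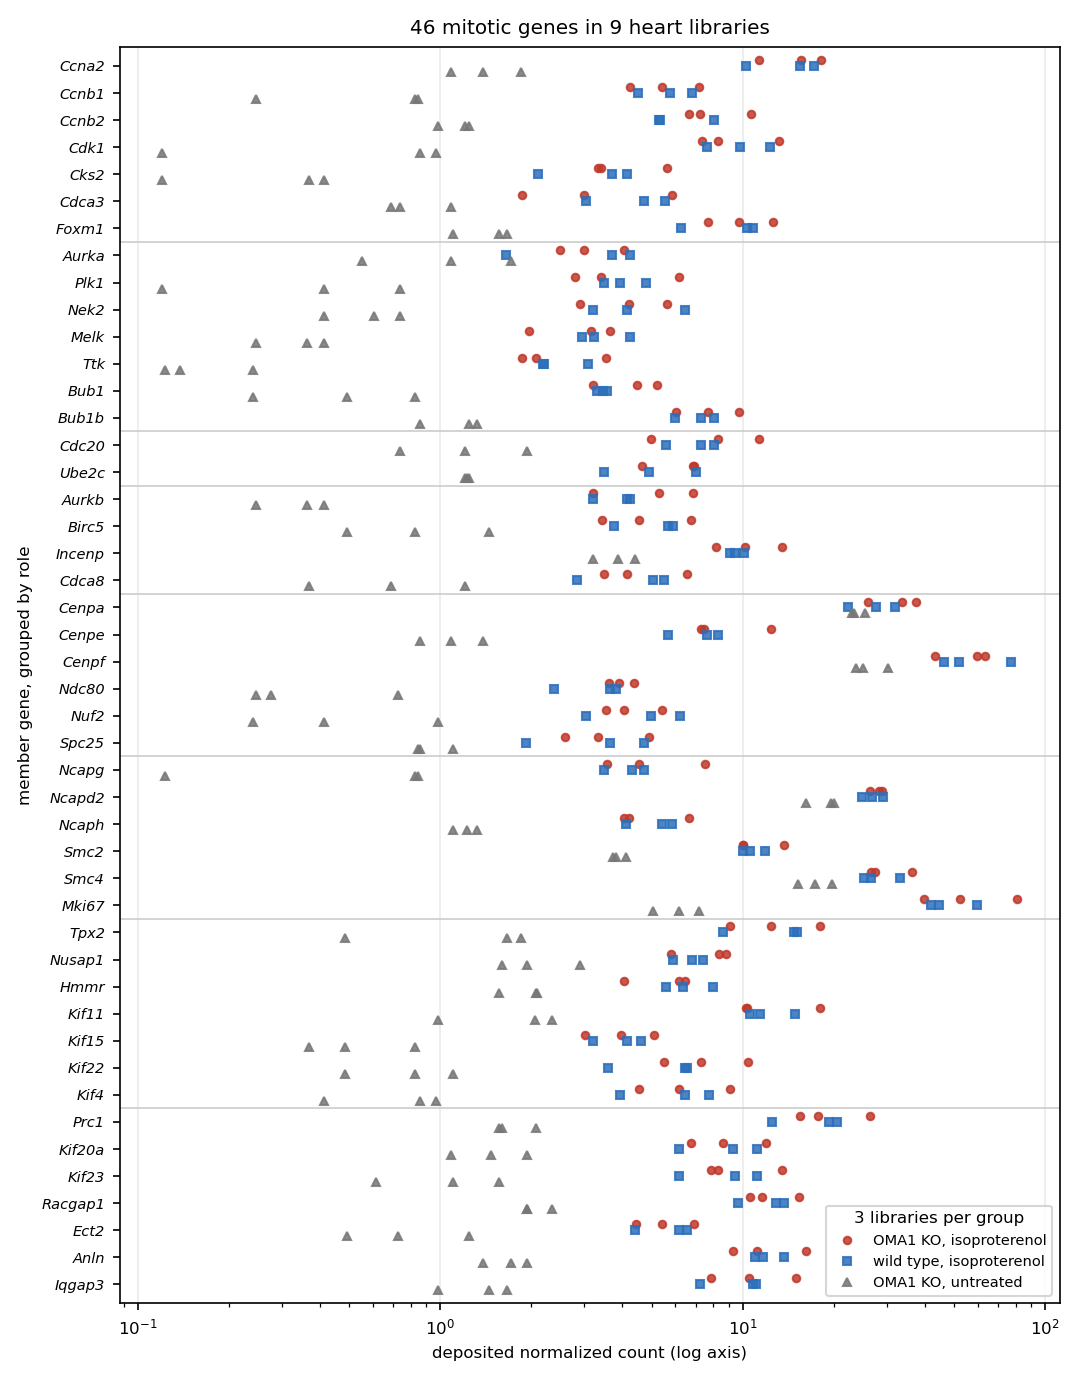
Deposited normalized count of each of the 46 genes (log axis) in each library, with genes grouped by role; circles are treated knockout, squares treated wild-type and triangles untreated knockout hearts, 3 libraries each. The treated symbols lie mixed, and the untreated ones lie to their left for all genes but Cenpa and Aurka, where the untreated range reaches into that of the treated wild-type hearts.

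The bases just before the transcription start are shown for 8 members, to show where the short motifs searched for here lie. Whether these motifs have a part in the differences was not tested. Promoter windows from RefSeq on GRCm38.p6, with 250 bases before and 50 after the start, were matched for 39 members, 2 of which have 2 starts, giving 41 windows. Not matched were Ccna2, Foxm1, Aurkb, Incenp, Smc4, Tpx2 and Kif20a. Both strands were searched for TTTGAA, the cell cycle genes homology region (CHR) to which the MuvB complex binds, for CCAAT, the box bound by NF-Y, and for an E2F site spelled TTCCCGC, or TTGGCGC, or TTCGCGC, or TTGCCGC. The first 6 sequences belong to the members with a CHR within 50 bases before the start and a CCAAT in the same 120 bases. Cenpa and Ncapd2 are the members with the smallest differences between treated and untreated knockout hearts. The start is the one given by RefSeq, and positions before or after it depend on that choice. By GENCODE, from which the gene coordinates further on come, Cenpa, Prc1 and Cdk1 begin within the bases shown. Each sequence gives the 120 bases before the RefSeq start on the gene's own strand, 5′ to 3′, and capitals mark a motif on either strand.
Cdk1: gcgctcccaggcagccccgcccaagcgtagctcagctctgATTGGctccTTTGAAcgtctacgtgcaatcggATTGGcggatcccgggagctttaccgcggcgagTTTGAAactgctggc
Cdc20: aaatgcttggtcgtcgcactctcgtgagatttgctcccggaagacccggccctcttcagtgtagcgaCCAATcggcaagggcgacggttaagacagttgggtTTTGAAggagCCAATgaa
Ube2c: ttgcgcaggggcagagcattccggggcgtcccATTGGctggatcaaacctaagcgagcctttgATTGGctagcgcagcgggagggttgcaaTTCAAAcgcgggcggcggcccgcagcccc
Kif11: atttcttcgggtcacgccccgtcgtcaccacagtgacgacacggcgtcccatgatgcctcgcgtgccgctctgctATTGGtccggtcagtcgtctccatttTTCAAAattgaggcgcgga
Kif22: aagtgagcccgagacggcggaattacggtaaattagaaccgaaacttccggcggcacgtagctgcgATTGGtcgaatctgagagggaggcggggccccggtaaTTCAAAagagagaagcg
Prc1: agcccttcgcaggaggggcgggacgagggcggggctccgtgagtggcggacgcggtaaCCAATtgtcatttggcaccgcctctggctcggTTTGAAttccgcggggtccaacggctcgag
Cenpa: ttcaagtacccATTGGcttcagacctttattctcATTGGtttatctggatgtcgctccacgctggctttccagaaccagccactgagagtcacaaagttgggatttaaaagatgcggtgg
Ncapd2: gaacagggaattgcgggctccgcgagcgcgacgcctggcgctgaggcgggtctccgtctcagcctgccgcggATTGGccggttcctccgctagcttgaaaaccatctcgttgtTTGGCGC
These lie at chr10:69352913-69353032 (Cdk1, minus strand), chr4:118437344-118437463 (Cdc20, minus), chr2:164769809-164769928 (Ube2c, plus), chr19:37376262-37376381 (Kif11, plus), chr7:127042421-127042540 (Kif22, minus), chr7:80294356-80294475 (Prc1, plus, the second of 2 starts), chr5:30666766-30666885 (Cenpa, plus) and chr6:125191587-125191706 (Ncapd2, minus).

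In 5 of the first 6 sequences the CHR is the motif nearest to the start, with CCAAT farther upstream. In Cdc20 a second CCAAT lies between the CHR and the start. These 6 were picked for a CHR close before the start, which favours that order. Cdk1 has 2 CHR and 2 CCAAT in the 120 bases. Cenpa and Ncapd2 have CCAAT but no CHR in the bases shown, and Ncapd2 has an E2F spelling next to the start. Both have a CHR elsewhere in the searched window, 123 bases before the start in Ncapd2 and after the start in Cenpa. The 10 matched members with no CHR in the window rose by 1.40 to 2.22, with Cenpe and Ccnb1 the highest, and no relation between the motif and the size of the difference was tested. In the whole windows a CHR was found in 75.6% of the member windows and in 17.9% of all 32851 RefSeq windows. The latter come from 27025 genes, and not from the genes tested for expression alone. CCAAT was found in 78.0% and 37.4%, and at least 2 copies of it in 53.7% and 11.7%. Both motifs together were found in 65.9% of the member windows and 6.95% of all windows. An E2F spelling was found in 24.4% and 9.57%, and 3 of its 11 matches in members share bases with a CCAAT match. The CHR matches of the members lay close to the start, within 50 bases on either side in 70.7% of member windows and 4.94% of all windows. About as many lay after the start (20) as before it (19), and before the start only, a CHR was found in 36.6% and 16.0%. The median GC content was 58.7% in member windows and 52.7% in all windows. These matches describe the letters only, and binding was not measured.

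**Figure D2:**
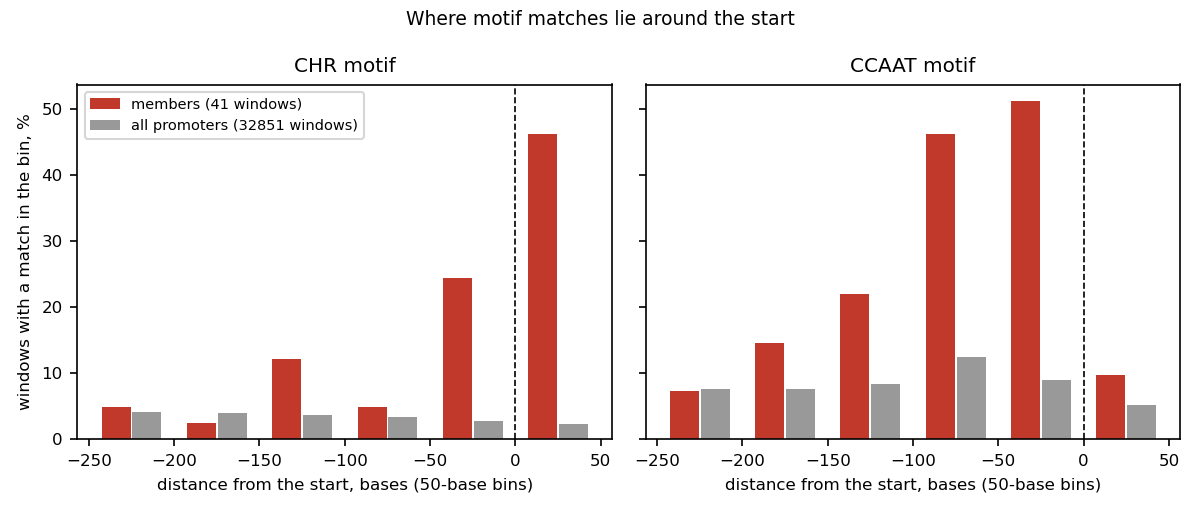
Share of promoter windows (percent) with a CHR or a CCAAT match in each 50-base bin by distance from the start, for the 41 windows of members and all 32851 RefSeq windows, including those of genes not tested for expression. Member windows exceed all windows for the CHR in the bins on either side of the start (24.4% and 46.3%, against 2.82% and 2.25%) and for CCAAT in the 2 bins before it (46.3% and 51.2%, against 12.5% and 9.03%).

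The 7 cyclin and CDK genes rose together, with log2 differences of 1.23 to 2.70 between treated and untreated knockout hearts and a median of 2.07. Ccna2 (ENSMUSG00000027715, chr3:36564865-36572150, minus strand, GRCm38) encodes cyclin A2, a partner of the kinase on the way into mitosis. It had 11.3, 18.1 and 15.6 normalized counts in treated knockout hearts, 10.3, 15.4 and 17.2 in treated wild-type and 1.09, 1.84 and 1.38 in untreated knockout hearts. The treated groups overlapped and both lay apart from the untreated one. Its difference between the knockout groups was 2.70 ± 0.20 (limma adjusted p = 7.2e-07). Foxm1, the transcription factor that drives G2 and mitotic genes, had 9.74, 12.6 and 7.71 in treated knockout, 6.24, 10.4 and 10.9 in treated wild-type and 1.57, 1.11 and 1.66 in untreated knockout hearts. It rose by 2.16 ± 0.21 (limma adjusted p = 4.3e-06), again with overlap between the treated genotypes. Cdk1, the mitotic kinase whose promoter is printed above, had among the largest ratios of means, 14.8, from 300 reads in treated and 15 in untreated knockout hearts. The mitotic cyclins Ccnb1 and Ccnb2 rose by 2.01 ± 0.21 and 2.07 ± 0.19, and Cks2, a small subunit of the kinase, by 1.95 ± 0.23. Cdca3, which triggers degradation of the WEE1 kinase, rose least of the 7 (1.23 ± 0.27), with 1.87, 5.84 and 3.0 in treated knockout hearts. Part of the exons of Ccna2 lies opposite Exosc9 (12.5% of its exon bases), and the sources used here do not say whether counting used the strand.

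The 7 kinase and checkpoint genes rose by 1.0 to 2.02, with a median of 1.70. Bub1b, the BUBR1 protein that holds back anaphase until kinetochores are attached, had 6.01, 9.69 and 7.71 in treated knockout, 5.96, 7.26 and 8.07 in treated wild-type and 1.33, 0.861 and 1.24 in untreated knockout hearts. No treated library came near the untreated ones, and the difference between knockout groups was 2.02 ± 0.18 (limma adjusted p = 2.5e-06). Nek2, the kinase that splits the paired centrosomes, had 2.90, 5.63 and 4.22 in treated knockout, 3.21, 4.15 and 6.44 in treated wild-type and 0.604, 0.738 and 0.414 in untreated knockout hearts. It rose by 1.70 ± 0.23 (limma adjusted p = 6.7e-05). The checkpoint kinases Bub1 and Ttk rose by 1.80 ± 0.19 and 1.55 ± 0.21, Ttk with only 4 reads over the 3 untreated libraries. Plk1, the kinase of centrosome maturation and many later steps, rose by 1.81 ± 0.24, and Melk, a kinase of dividing cells, by 1.53 ± 0.20. Aurka, the Aurora A kinase of centrosomes and spindle poles, rose least (1.0 ± 0.27, limma adjusted p = 0.0082). In treated wild-type hearts its 1.65, 3.69 and 4.23 reached into the untreated range of 0.553 to 1.72.

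Both members that work with the anaphase-promoting complex rose, and its other genes are described further on. Cdc20, the activator of the complex at the end of metaphase, had 4.97, 11.4 and 8.27 in treated knockout, 5.59, 8.07 and 7.30 in treated wild-type and 1.21, 0.738 and 1.93 in untreated knockout hearts. Ube2c, the enzyme that hands it ubiquitin, had 4.66, 6.88 and 6.90 in treated knockout, 3.48, 7.03 and 4.90 in treated wild-type and 1.21, 1.23 and 1.24 in untreated knockout hearts. In both genes the treated genotypes overlapped and the untreated libraries lay lowest. The differences between knockout groups were 1.98 ± 0.25 for Cdc20 (limma adjusted p = 3.4e-05) and 1.67 ± 0.21 for Ube2c (limma adjusted p = 3.0e-05). Of the exon bases of Ube2c, 22.8% lie opposite Tnnc2, a troponin gene.

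The chromosomal passenger complex corrects faulty attachments at centromeres and then moves to the midzone, and its 4 genes rose by 1.25 to 2.15. Incenp, its scaffold, had 8.19, 13.4 and 10.2 in treated knockout, 9.08, 9.45 and 10.1 in treated wild-type and 3.87, 3.20 and 4.42 in untreated knockout hearts, a difference of 1.25 ± 0.16 between knockout groups (limma adjusted p = 4.3e-05). Birc5, survivin, had 3.42, 6.77 and 4.54 in treated knockout, 3.76, 5.88 and 5.67 in treated wild-type and 1.45, 0.492 and 0.829 in untreated knockout hearts, a difference of 1.61 ± 0.24 (limma adjusted p = 0.00012). Incenp had the highest untreated level of the 4 and the smallest difference. Aurkb, the Aurora B kinase of the complex, had the highest ratio of means of all 46, 15.0, resting on 8 reads over the untreated libraries. Cdca8, borealin, rose by 1.70 ± 0.25.

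The 6 centromere and kinetochore genes split by their untreated level. Cenpf, a large protein of kinetochores and of the nucleus in G2, had 59.4, 43.4 and 63.4 in treated knockout, 76.8, 46.3 and 51.8 in treated wild-type and 25.004, 30.3 and 23.6 in untreated knockout hearts. It was the member in which treated knockout replicate 2 was the lowest of its group, and it rose by 1.04 ± 0.17 (limma adjusted p = 0.00028). Cenpa (ENSMUSG00000029177, chr5:30666777-30674830, plus strand, GRCm38) encodes the histone H3 variant that marks centromeres. It had 25.9, 37.5 and 33.6 in treated knockout, 22.4, 31.8 and 27.7 in treated wild-type and 23.1, 25.3 and 23.3 in untreated knockout hearts. The treated knockout libraries lay just above the untreated ones, and the treated wild-type libraries overlapped them. Its difference of 0.41 ± 0.14 between knockout groups (limma adjusted p = 0.027) was the smallest of the 46. That call was lost without treated knockout replicate 2 (0.29, limma adjusted p = 0.12) or replicate 3 (0.082), without untreated knockout replicate 1 (0.080) or replicate 3 (0.071), and in a fit with no mean-variance trend (0.063). The others rose by more. Cenpe, the kinesin that carries chromosomes to the spindle equator, rose by 2.22 ± 0.20. Ndc80, Nuf2 and Spc25, all subunits of the NDC80 complex that grips microtubules, rose by 1.82 ± 0.20, 1.80 ± 0.24 and 1.22 ± 0.24.

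The condensin genes, whose products fold mitotic chromosomes, and Mki67 made up the class with the widest range, 0.56 to 2.99. Mki67, the Ki-67 protein that coats mitotic chromosomes, lies at chr7:135689784-135716361 (minus strand, GRCm38) and had 39.8, 80.7 and 52.2 in treated knockout, 41.8, 44.7 and 59.7 in treated wild-type and 5.07, 6.15 and 7.18 in untreated knockout hearts. It rose by 2.99 ± 0.20 (limma adjusted p = 5.1e-07), the largest difference of the 46. Smc4, an ATPase of both condensins, had 26.5, 36.3 and 27.3 in treated knockout, 25.2, 26.5 and 33.3 in treated wild-type and 19.7, 17.3 and 15.2 in untreated knockout hearts. The treated genotypes overlapped and the untreated libraries lay lower, and its difference between knockout groups was 0.75 ± 0.14 (limma adjusted p = 0.00060). Smc2, its ATPase partner, rose by 1.32 ± 0.14. Of the subunits particular to condensin I, Ncapg rose by 1.94 ± 0.24, Ncaph by 1.40 ± 0.19 and Ncapd2 by 0.56 ± 0.10. The subunits of this complex thus stood between 1.5-fold (Ncapd2) and 8.70-fold (Ncapg) by the ratio of means.

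The 7 spindle genes rose by 1.16 to 2.62, with a median of 2.09. Tpx2, which nucleates microtubules near chromosomes and activates Aurora A, had 9.12, 18.0 and 12.4 in treated knockout, 8.62, 14.8 and 15.1 in treated wild-type and 0.483, 1.84 and 1.66 in untreated knockout hearts. Kif11, the kinesin that pushes the spindle poles apart, had 10.3, 18.0 and 10.3 in treated knockout, 10.5, 11.4 and 14.9 in treated wild-type and 2.05, 0.984 and 2.35 in untreated knockout hearts. Both were several times higher in every treated library than in any untreated one. The differences between knockout groups were 2.62 ± 0.27 for Tpx2 (limma adjusted p = 8.1e-06) and 2.30 ± 0.23 for Kif11 (limma adjusted p = 5.2e-06). A further 3 kinesins rose, Kif22 and Kif4, which bind chromosome arms, by 2.25 ± 0.24 and 2.09 ± 0.24, and Kif15, a motor that can back up Kif11, by 1.68 ± 0.20. The microtubule binders Nusap1 and Hmmr rose by 1.46 ± 0.18 and 1.16 ± 0.18. Named pseudogenes exist for Kif22 and Kif4, and for Ccnb1 and Ccnb2, and how reads were shared with them was not tested.

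The 7 genes of the central spindle and cytokinesis had the highest class median, 2.28, with a range of 1.86 to 2.89. Prc1 (ENSMUSG00000038943, chr7:80294450-80316259, plus strand, GRCm38) encodes the protein that bundles the overlapping microtubules of the midzone. It had 15.4, 26.4 and 17.8 in treated knockout, 12.5, 19.4 and 20.47 in treated wild-type and 1.57, 1.60 and 2.07 in untreated knockout hearts. It rose by 2.89 ± 0.20 (limma adjusted p = 5.2e-07), next to Mki67. Racgap1, which with Kif23 forms the centralspindlin complex, had 10.6, 15.3 and 11.6 in treated knockout, 9.63, 13.7 and 12.9 in treated wild-type and 1.93, 2.34 and 1.93 in untreated knockout hearts. It rose by 2.12 ± 0.16 (limma adjusted p = 8.1e-07) and its 3 untreated libraries lay close together. Kif23 itself rose by 2.36 ± 0.23, and Ect2, the exchange factor through which centralspindlin activates RhoA, by 1.86 ± 0.20. Anln, anillin of the contractile ring, rose by 2.28 ± 0.18, Iqgap3, a scaffold protein, by 2.33 ± 0.21 and Kif20a, the motor of midzone vesicles and passengers, by 2.0 ± 0.22. For Kif20a, 29.3% of the exon bases lie opposite Cdc23.

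**Figure D3:**
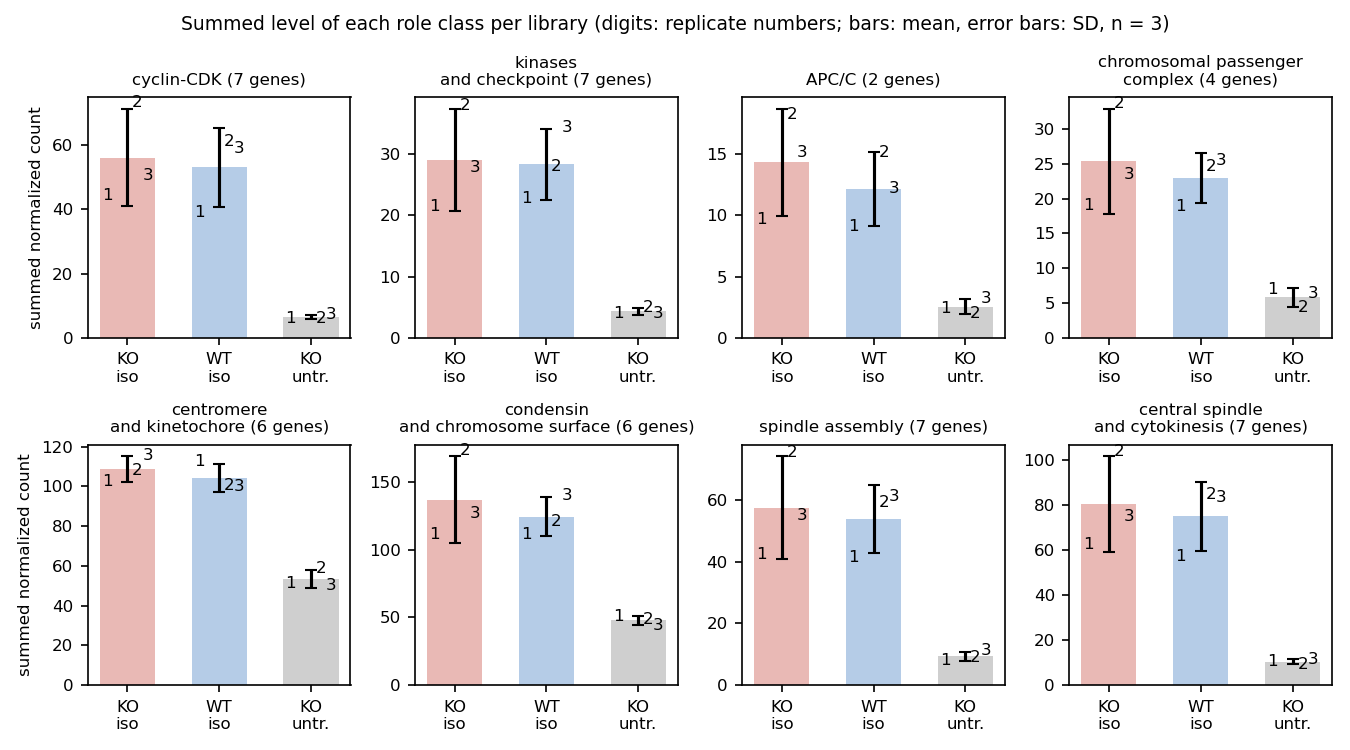
Summed normalized count of each role class in each group; bars are means, error bars SDs of 3 libraries, and each digit stands at the value of that replicate. Central spindle and cytokinesis genes summed to 62.3, 104 and 74.8 in treated knockout, 57.04, 84.5 and 83.0 in treated wild-type and 10.3, 9.22 and 11.3 in untreated knockout hearts, and in every class the treated libraries lie above the untreated ones.

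Treated hearts with and without OMA1 were then compared, which asks whether the mitotic programme stood at another level under the drug when OMA1 was missing. None of the 46 genes passed, with 0 higher and 0 lower by limma, where 17.1% of all genes passed (7.78% higher and 9.29% lower). Without adjustment, 0 had a limma p under 0.05, and edgeR called 0, against 17.5% of all genes. Of the genes tested 1054 were called higher and 1258 lower by limma, and 1453 and 995 when rescaled to the total without mitochondrially encoded transcripts. The median log2 difference of the 46 genes was 0.07, that of all genes 0.02, and 31 were higher and 15 lower in treated knockout hearts without passing. The groups overlapped for all 46, whereas 18.1% of all genes lay apart upward and 17.7% downward.

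The intervals limit how far the treated genotypes could differ on the scale of log2(value + 1). All 46 of the 95% intervals of the limma fit held 0. On that scale they lay within 2-fold either way, with bounds of -0.90 to 0.93. The pseudocount understates differences of genes with few reads, so these bounds do not limit the fold change of the level itself to 2-fold. The largest positive value was that of Kif22 (0.42, interval -0.09 to 0.93) and the largest negative one that of Cdca3 (-0.31, interval -0.90 to 0.27). The lowest adjusted p, 0.24, was that of Ccnb2 (0.34 ± 0.19). Foxm1 differed by 0.13 ± 0.21, Mki67 by 0.19 ± 0.20 and Kif11 by 0.03 ± 0.23. The intervals differed in width between genes, from -0.16 to 0.26 for Ncapd2 to the widths given for Kif22 and Cdca3, and differences inside a gene's own interval were not detectable here.

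Within treated knockout hearts 1 library was the highest for most genes. Of the 46 genes, 41 had their highest value of that group in replicate 2, 5 in replicate 3 and 0 in replicate 1. In treated wild-type hearts the highest was replicate 3 for 26 genes, replicate 2 for 19 and replicate 1 for 1. In untreated knockout hearts it was replicate 1 for 14 genes, replicate 2 for 12 and replicate 3 for 20. Treated knockout replicate 2 was also the library with the most mitochondrially encoded and red-cell transcripts of its group, and their part in the result was not tested. Without it 45 of 46 genes were called higher than in untreated knockout hearts (median 1.71), all but Cenpa, and the median difference between treated knockout and wild-type hearts was -0.09 with 0 genes called. Without treated wild-type replicate 1 the median between the treated genotypes was -0.08, again with 0 called. Without treated wild-type replicate 3, the other library that stood apart, that median was 0.17 with 0 called, and 44 genes were called higher in treated wild-type than in untreated knockout hearts, with a median of 1.70.

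**Figure D4:**
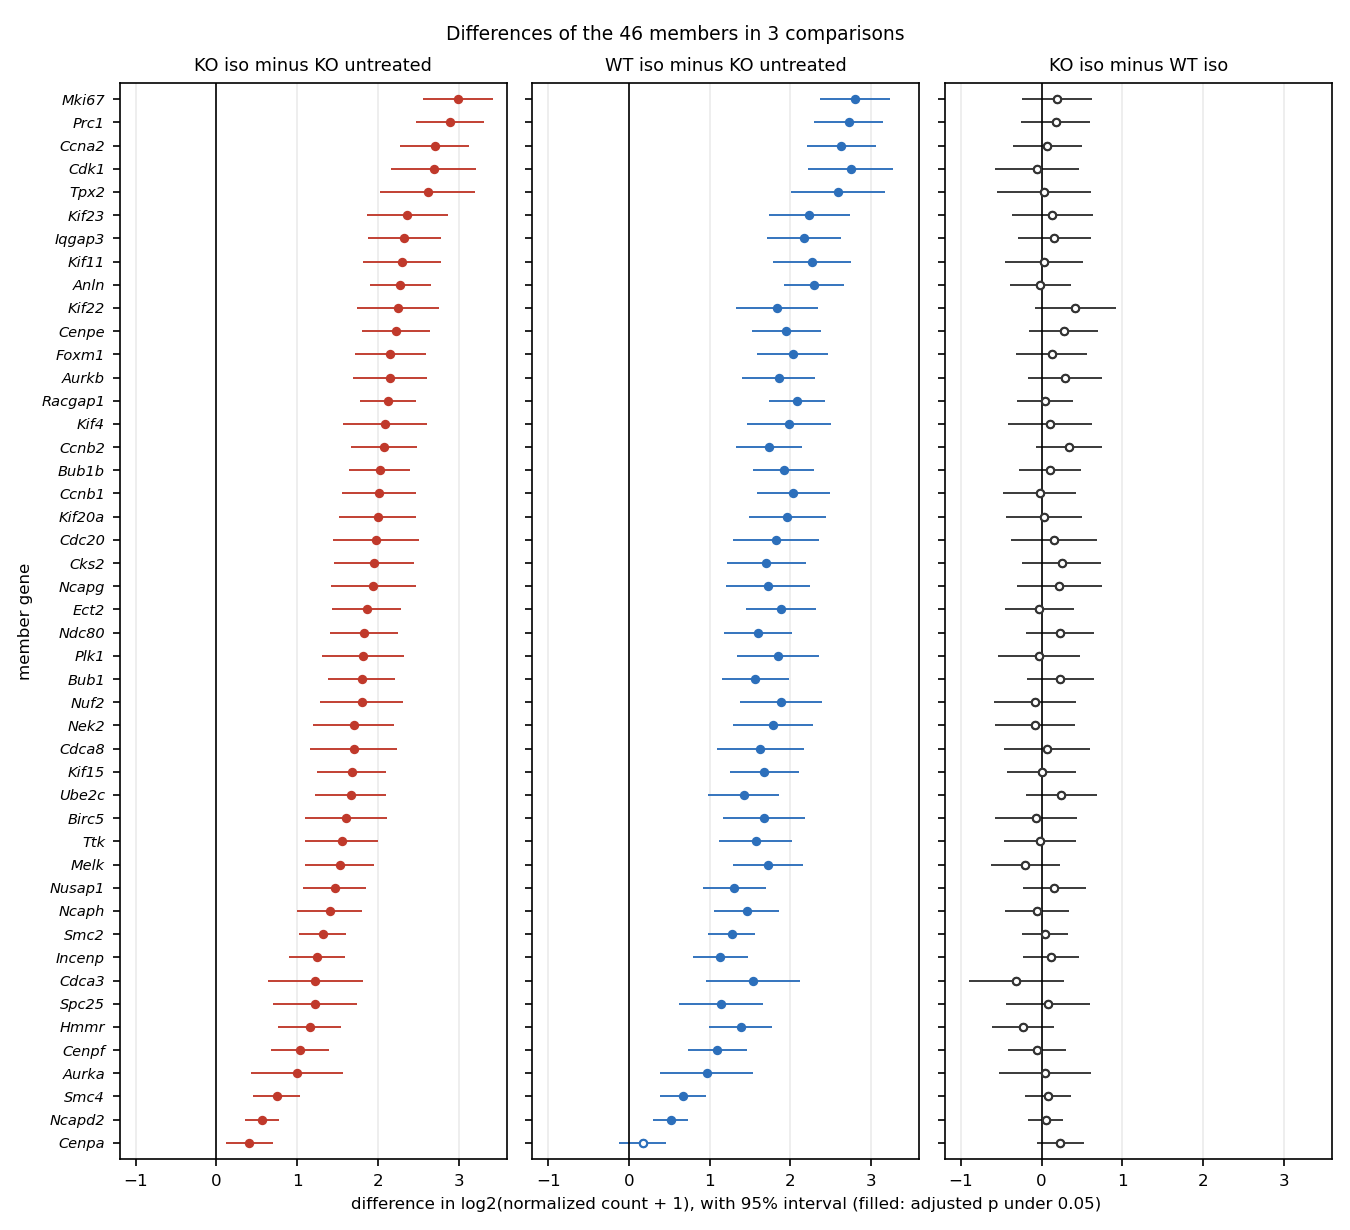
Log2 difference with its 95% interval for each of the 46 genes in 3 comparisons, treated minus untreated knockout, treated wild-type minus untreated knockout, and treated knockout minus treated wild-type; filled points passed an adjusted p of 0.05. The first 2 panels show nearly all genes to the right of 0, and in the third every interval holds 0.

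Treated wild-type hearts were also set against the untreated knockout hearts, the same 3 libraries as in the first comparison, and here genotype and treatment both differ. Of the 46 genes 45 rose and 0 fell by limma, where 13.7% of all genes were called higher and 12.9% lower (1859 higher and 1745 lower, and 2295 and 1385 when rescaled to the total without mitochondrially encoded transcripts). The groups lay apart for 44 genes, all but Aurka and Cenpa, and for 21.1% of all genes. The median log2 difference of the 46 was 1.76 and that of all genes 0.01. By edgeR the median was 2.73, with 45 called, against 12.8% of all genes called higher. Cdk1 had the highest ratio of means, 15.3. Cenpa was the gene not called (0.17 ± 0.14, limma adjusted p = 0.38, interval -0.12 to 0.46). Aurka, called at 0.96 ± 0.27 (limma adjusted p = 0.016), lost its call without treated wild-type replicate 2 (0.85, limma adjusted p = 0.066) or replicate 3 (0.77, 0.065), without untreated knockout replicate 3 (0.75, 0.071) and by voom (1.41, 0.052).

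Levels were compared between genes per kilobase of the longest annotated transcript. The 5 members with the smallest log2 differences between the knockout groups, Cenpa, Ncapd2, Smc4, Aurka and Cenpf, had 0.588 to 6.28 normalized counts per kb in untreated knockout hearts, with a median of 4.02. The other 41 had 0.0584 to 1.11, with a median of 0.311. The gain per kb, treated minus untreated knockout, was 1.08 to 2.93 for the 5 (median 2.21) and 0.714 to 5.51 for the others (median 1.69). Cenpa, Ncapd2, Smc4 and Cenpf thus had higher untreated levels than any of the others, Aurka lay within their range, and the gains of all 5 lay within the range of the others. They were picked by their difference, so this is a description without a test.

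**Figure D5:**
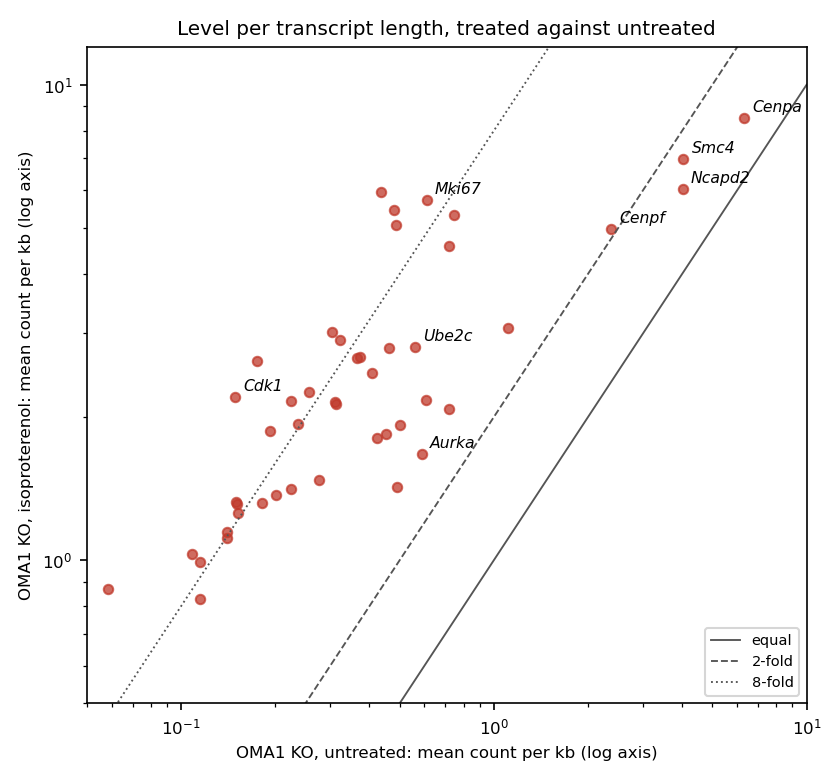
Mean normalized count per kb in treated knockout hearts (vertical, log axis) against untreated knockout hearts (horizontal, log axis) for the 46 genes, with lines at equal level, 2-fold and 8-fold. Cenpa, Smc4, Ncapd2 and Cenpf lie to the right, at 2.36 to 6.28 counts per kb in untreated hearts, and all points lie above the line of equal levels.

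Other genes of cell division were described from lists that leave out the 46. Between treated and untreated knockout hearts, 21.0% of all genes were called higher and 20.3% lower, and the counts of these lists stand beside those shares. Of 24 further kinetochore and checkpoint genes in the table, 13 rose and 1 fell between treated and untreated knockout hearts. The 3 with the most signal were Zwint, a kinetochore linker, which fell (-0.36 ± 0.09, limma adjusted p = 0.0067), and Bub3 (0.15 ± 0.09) and Zw10 (0.22 ± 0.12), which did not pass. Of 31 further spindle and cytokinesis genes 18 rose and 3 fell. The 3 that fell, the kinases Nek9 (-0.29 ± 0.07) and Nek7 (-0.70 ± 0.10) and the augmin subunit Haus2 (-0.38 ± 0.11), are expressed at 11.7 to 155 normalized counts in treated knockout hearts. The small GTPase Rhoa and the spindle pole protein Numa1, also among the most abundant, differed by 0.06 ± 0.06 and -0.07 ± 0.07 and did not pass. Of 15 further condensin and cohesin genes 5 rose and 1 fell, the cohesin regulator Pds5a (-0.39 ± 0.09). Those that rose were Espl1, the separase that cuts cohesin (1.53 ± 0.18), Esco2 (1.20 ± 0.18) and Cdca5 (0.98 ± 0.26), which establish and protect cohesion, the condensin II subunit Ncapg2 (0.98 ± 0.19) and the cohesin ATPase Smc1a (0.47 ± 0.07). The most abundant, Rad21 (0.07 ± 0.07), Ncaph2 (-0.05 ± 0.07) and Stag2 (0.02 ± 0.07), did not pass.

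The other subunits and partners of the anaphase-promoting complex, which also works outside mitosis, gave 3 higher and 3 lower of 16. Among them Anapc5 stood at -0.02 ± 0.06, Anapc1 at -0.17 ± 0.07 and Anapc2 higher at 0.20 ± 0.07 (limma adjusted p = 0.046). Fbxo5, the inhibitor EMI1 of the complex, and the subunit Anapc13 rose by 0.97 ± 0.21 and 0.43 ± 0.09, and the subunits Anapc16 (-0.53 ± 0.10) and Cdc23 (-0.25 ± 0.08) and the late activator Fzr1 (-0.31 ± 0.11) fell. Of 19 genes of the DREAM complex and the E2F family, 6 rose and 4 fell, where 21.0% of all genes were called higher and 20.3% lower. The number that fell here, and both counts for the anaphase-promoting complex, are near those shares and are not read as a result about the lists. Mybl2, the B-MYB partner of MuvB in mitotic transcription, rose by 1.53 ± 0.22, the activator E2f1 by 1.36 ± 0.20 and the repressors E2f7 and E2f8 by 1.56 ± 0.25 and 0.90 ± 0.22, beside E2f2 (0.86 ± 0.26) and Rbl1 (0.74 ± 0.14). Those that fell were E2f6 (-0.23 ± 0.08), the E2F partner Tfdp2 (-0.55 ± 0.09), the pocket protein Rbl2 of the repressing DREAM complex (-0.52 ± 0.08) and its subunit Lin52 (-0.37 ± 0.13), while the chromatin protein Rbbp4 differed by 0.04 ± 0.07 without passing. Of 12 genes of mitotic entry and CDK inhibition 6 rose and 0 fell. Among them Cdkn1a, the inhibitor p21, had 32.1, 45.7 and 34.6 normalized counts in treated knockout, 33.7, 40.5 and 34.3 in treated wild-type and 11.7, 12.3 and 18.5 in untreated knockout hearts, a difference of 1.35 ± 0.16 between knockout groups (limma adjusted p = 2.0e-05). The inhibitors Cdkn1b (-0.18 ± 0.08) and Cdkn2d (0.10 ± 0.11) did not pass.

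Of 8 G1 cyclins and kinases 5 rose and 1 fell. Ccnd1, cyclin D1, rose by 1.67 ± 0.12 (limma adjusted p = 6.0e-07) to 135 ± 29.9 in treated knockout hearts, against 41.1 ± 1.60 in untreated ones, Ccnd3, Ccne1, Cdk2 and Cdk4 rose by 0.52 ± 0.08, 0.58 ± 0.20, 0.46 ± 0.12 and 0.37 ± 0.10, and Ccnd2 fell (-0.27 ± 0.10). Of 30 S-phase genes 21 rose and 0 fell. Top2a, the topoisomerase that untangles sister chromatids, had 21.1, 43.3 and 28.7 in treated knockout, 25.2, 34.4 and 31.2 in treated wild-type and 2.66, 1.97 and 3.73 in untreated knockout hearts. The replication clamp Pcna (0.28 ± 0.11, limma adjusted p = 0.056) did not pass and Gmnn, the licensing inhibitor geminin, did (0.22 ± 0.09, limma adjusted p = 0.047).

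Treated wild-type hearts had 12 of the 24 kinetochore, 19 of the 31 spindle and 17 of the 30 S-phase genes higher and 0 of each lower than the same untreated knockout libraries. Of all genes, 13.7% were called higher and 12.9% lower there. Between the treated genotypes, of 155 genes in these lists 3 were higher and 10 lower, where 7.78% of all genes were called higher and 9.29% lower. Pooled, these lists thus did not exceed the shares over all genes, but some small single lists did. Lower were 4 of 31 spindle, 3 of 19 DREAM and E2F and 1 of 8 G1 genes. Higher were 2 of 16 genes of the anaphase-promoting complex list and 1 of 12 of mitotic entry and CDK inhibition. In the kinetochore and S-phase lists 0 of 24 and 0 of 30 passed limma in either direction. The genes that did pass in the other lists are named here after their values were seen. Lower in treated knockout than in treated wild-type hearts were Nek9 (-0.46 ± 0.07), Nek7 (-0.56 ± 0.10), Ckap5 (-0.34 ± 0.07), Haus2 (-0.41 ± 0.11), Pds5a (-0.74 ± 0.09), Anapc1 (-0.23 ± 0.07), Ccnd2 (-0.47 ± 0.10) and, of the DREAM and E2F list, Tfdp2 (-0.35 ± 0.09), Rbl2 (-0.52 ± 0.08) and Rb1 (-0.28 ± 0.08). Higher were Anapc11 (0.46 ± 0.10), Anapc13 (0.31 ± 0.09) and Cdkn1c, the inhibitor p57 (0.68 ± 0.14).

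Markers of cell types that can divide in the heart were also compared, and the share that rose differed between the lists. Of all genes, 21.0% were called higher and 20.3% lower between treated and untreated knockout hearts. Between treated knockout and treated wild-type hearts 7.78% were called higher. All 12 endothelial markers rose between treated and untreated knockout hearts, with a median of 0.84, and 9 of 12 were also higher in treated knockout than in treated wild-type hearts, with a median of 0.37. Their sum was 2114 to 2546 in treated knockout, 1650 to 1808 in treated wild-type and 1190 to 1313 in untreated knockout hearts, so the groups did not overlap. Of 12 fibroblast markers 10 rose and 0 fell between the knockout groups (median 0.82), with sums of 3086 to 3243 in treated knockout, 2730 to 4987 in treated wild-type and 2155 to 2261 in untreated knockout hearts. Of 10 smooth muscle and pericyte markers 7 rose and 1, Abcc9, fell, with sums of 1284 to 1549 in treated knockout, 1417 to 1664 in treated wild-type and 1021 to 1045 in untreated knockout hearts. Of 12 detected macrophage and monocyte markers 5 rose (Itgam, Cd68, Mrc1, C1qa and C1qc) and 0 fell, with sums of 412 to 473 in treated knockout, 340 to 495 in treated wild-type and 299 to 407 in untreated knockout hearts.

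Cd79a, a subunit of the B-cell receptor, averaged 0.355 ± 0.275 in treated knockout, 0.380 ± 0.170 in treated wild-type and 3.32 ± 1.41 in untreated knockout hearts. Of 6 red-cell and erythroid precursor markers 0 rose and 1, Tfrc, fell, with sums of 843 to 3650 in treated knockout, 1681 to 2151 in treated wild-type and 1422 to 3173 in untreated knockout hearts. Of 10 heart muscle markers 0 rose and 1, Pln, fell, with sums of 50583 to 53509 in treated knockout, 47032 to 54411 in treated wild-type and 54853 to 59292 in untreated knockout hearts. Of the atrial markers 5 of 6 fell (Myl7, Myl4, Sln, Nppa and Dkk3), with a median of -4.93, and Sln, an atrial regulator of the calcium pump, was at 0 or 0.081 in treated knockout hearts, at 0 in treated wild-type hearts and at 53.7 to 134 in untreated ones. The part of any of these cell types in the higher mitotic transcripts was not tested.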

How the data were processed

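Mouse heart RNA was sequenced in 9 libraries, 3 per group; mice were killed and RNA was taken from frozen tissue with TRIzol and columns, per the labels' protocols. The authors deposited normalized expected counts, treated here as a signal; near-equal column sums show a scaling to library size. The submitters' processing notes name cutadapt, RSEM 1.17, limma and GRCm38, with roles and settings not stated; aligner and counting strand were not given in the sources used here. Divided by 1 step per library, the values came out whole (100% within 0.02 of a whole number), and the reads so recovered served for depth and count tests only.

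Differences were fitted with limma 3.58.1 on log2(value + 1) over 13539 genes and all 9 libraries, with a mean-variance trend, no minimum value and Benjamini-Hochberg adjustment at 0.05. Alternatives used edgeR 4.0.16, DESeq2 1.42.0 and voom in R 4.3.3. The scripts were tested on simulated data. The labels do not say whether each library is a separate animal, so p-values reflect only how these samples vary, which may be technical. Library values are written out for the 2 members of each role class with the most signal over the 9 libraries, and in the other lists the 3 genes with the most signal and those called against most members are named; further genes were named after their values were seen. Members and lists were chosen with earlier results of these data known. Promoter windows came from RefSeq (GRCm38.p6) and were read in Python 3.11.15. The lymphocyte marker list as a whole is not reported here.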

Additional observations from a re-analysis of the deposited data

How the results depend on the processing

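In all alternatives run, 0 of the members' differences reversed where called, and Cenpa and Aurka were the members to lose a call, as given above. The size moved with the low counts of untreated hearts. The members' median log2 difference between treated and untreated knockout hearts was 2.70 with a pseudocount of 0.1, 0.54 with 10, 2.81 by edgeR, 2.83 by DESeq2, 2.76 by voom, and 2.16 over the 15 members that reach 10 normalized counts in 3 libraries. Between treated wild-type and untreated knockout hearts it was 2.64, 0.49, 2.73, 2.76 and 2.70, and 2.08 with 14 members called. Of those 15 members, 4 reach 10 in an untreated knockout library. The minimum thus favours members that are high in treated hearts, and its medians of 2.16 and 2.08 are no separate support. Without each library in turn, the members' median lay between 1.71 and 1.99 in the first comparison (45 to 46 called). It lay between 1.70 and 1.93 in the second (44 to 45 called), and between -0.09 and 0.19 between the treated genotypes. There, up to 21 of the 46 uncalled signs changed without treated knockout replicate 2.

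Over all genes, the treated genotypes differed in 640 higher and 725 lower without the variance trend, in 625 and 779 with those groups alone, and in 661 higher with a length and GC correction chosen after seeing the data. Without each library, 459 to 975 were higher and 697 to 1316 lower. The lowest were without treated knockout replicate 2 (459 and 697), and treated wild-type replicates 1 (686 and 784) and 2 (641 and 833) also mattered. Against untreated knockout hearts those ranges were 2183 to 3017 higher and 2219 to 2888 lower for treated knockout, and 1343 to 2001 and 1204 to 1951 for treated wild-type hearts. The causes were not tested. Counting matches before the start only gave a CHR in 36.6% of member windows and 16.0% of all windows. CCAAT was then found in 78.0% of member windows and 33.8% of all windows, and an E2F spelling in 17.1% and 7.89%.

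With the replicate number as a block, 46, 0 and 45 members were called in the 3 comparisons, treated against untreated knockout, treated knockout against treated wild-type, and treated wild-type against untreated knockout. Same-numbered libraries did not deviate together (correlations of -0.15 to 0.19), so the numbers were not taken as pairs. Depth limits the genes with few untreated reads, where Ttk had 4 in 3 libraries.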
